A study of Mus musculus with 6 samples.

Results

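The genes described here encode the contractile apparatus of smooth muscle. They are 34 genes, taken by symbol from 23329 in the tables, and all 34 were found. Expression was measured by RNA-seq in primary cultures of mesenchymal cells from the small intestine of C57 mice. There were 3 cultures from E14.5 (embryonic day 14.5) intestine and 3 from adult intestine. Embryonic intestine was minced, while adult intestine was first slit and its villi scraped away. Both then went through chelation to strip the epithelium and through digestion with collagenase and dispase. Cells grew in 10% serum until confluent, and passages 2 to 3 were used for RNA. All 6 cultures were grown with 1 µM Y27632, a kinase inhibitor, so no library shows these genes without the inhibitor. No sort or gate for muscle cells is named in the labels, nor whether separate animals gave the cultures of a group. The p-values below therefore measure the spread between these cultures, which may in part be technical.

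Counts assigned to genes were most numerous in E14.5 replicate 1 (32672370) and least in adult replicate 2 (18850224). Markers of fibroblasts added up to 7562 to 18356 CPM (counts scaled to library size) in E14.5 libraries and 8019 to 13939 CPM in adult libraries. Of these 6 markers 1 passed, Pdgfra, with 2.47, 3.85 and 4.45 CPM in E14.5 against 29.5, 81 and 31.7 CPM in adult libraries. Its log2 fold change, E14.5 over adult, was -3.72 (SE 0.5, adjusted p = 0.0361, edgeR). Col1a2 (-1.27), Thy1 (-1.72) and Lum (-0.36) also had negative values, while Col1a1 (0.85) and Dcn (0.5) had positive ones. Of 5 epithelial markers measured, Epcam, Cdh1, Vil1 and Lgr5 stayed under 1 CPM in all 6 libraries. The fifth, the keratin gene Krt20, had 61.4, 47 and 24.4 CPM in E14.5 replicates, above the 13.4, 9.09 and 13.7 CPM of adult replicates, but did not pass (log2 fold change 1.87, SE 0.36, adjusted p = 0.0833, edgeR). Leukocyte markers added up to 227 to 2597 CPM in the E14.5 cultures, against 24.4 to 192 CPM in the adult ones, and were highest in E14.5 replicate 3. Endothelial markers added up to 12.4 to 38.4 CPM in E14.5 libraries, and to 29.8, 2008 and 454 CPM in adult replicates 1, 2 and 3.

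Smooth muscle contracts when calcium and calmodulin switch on myosin light chain kinase, which phosphorylates the regulatory light chain of myosin, and it relaxes when myosin phosphatase removes that phosphate. Thin filaments of actin are anchored to dense bodies and to the membrane, and are dressed by tropomyosin, calponin and caldesmon. Serum response factor (SRF) binds a short DNA element, the CArG box, near many of these genes, and its cofactor myocardin drives the programme of differentiated muscle. Part of the apparatus, such as alpha smooth muscle actin, is also made by myofibroblasts, contractile fibroblasts that cultured fibroblasts commonly come to resemble. Other parts, such as non-muscle myosin and filamin, are found in most cells. The 34 genes were therefore read as 14 late visceral muscle genes, 10 genes shared with myofibroblasts, 9 general actomyosin genes and Srf itself.

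Both embryonic and adult cultures held the contractile apparatus at high levels. The 34 genes together took 7.47%, 5.6% and 5.96% of all gene counts in E14.5 replicates 1, 2 and 3, against 6.5%, 5.05% and 6.53% in adult replicates 1, 2 and 3. The 10 genes shared with myofibroblasts made up most of this, with 3.46% to 4.46% in E14.5 and 2.94% to 4.03% in adult libraries. The late visceral muscle genes took 1.53%, 0.72% and 1.17% in E14.5 and 0.825%, 0.654% and 0.834% in adult replicates 1, 2 and 3. The groups overlapped in all of these shares. In cultures of mixed cells, fewer muscle cells and less muscle RNA per cell cannot be told apart.

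No member passed the test of E14.5 against adult. By edgeR's quasi-likelihood test with Benjamini-Hochberg adjustment over 13478 genes, 0 of the 33 members tested had an adjusted p under 0.05, where 1.08% of all genes did. The unadjusted p of 6 members was under 0.05, against 17.9% of all genes. Of these, 4 were higher in E14.5, where 8.64% of all genes were, and 2 were lower, where 9.26% were. DESeq2 called 5 members, against 10.6% of all genes. Those were Des, Kcnmb1, Myocd and Synpo2, higher in E14.5 (5.14% of all genes), and Tpm4, lower (5.47%). Limma-voom called 0, against 1.02%. The 2 groups did not overlap for 3 of the 33, against 24.1% of all genes. These were Des and Synpo2, higher in E14.5 (12.1% of all genes), and Tpm4, lower (12.0%). The 34th gene, Pcp4, had too few counts to be tested.

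**Figure D1:**
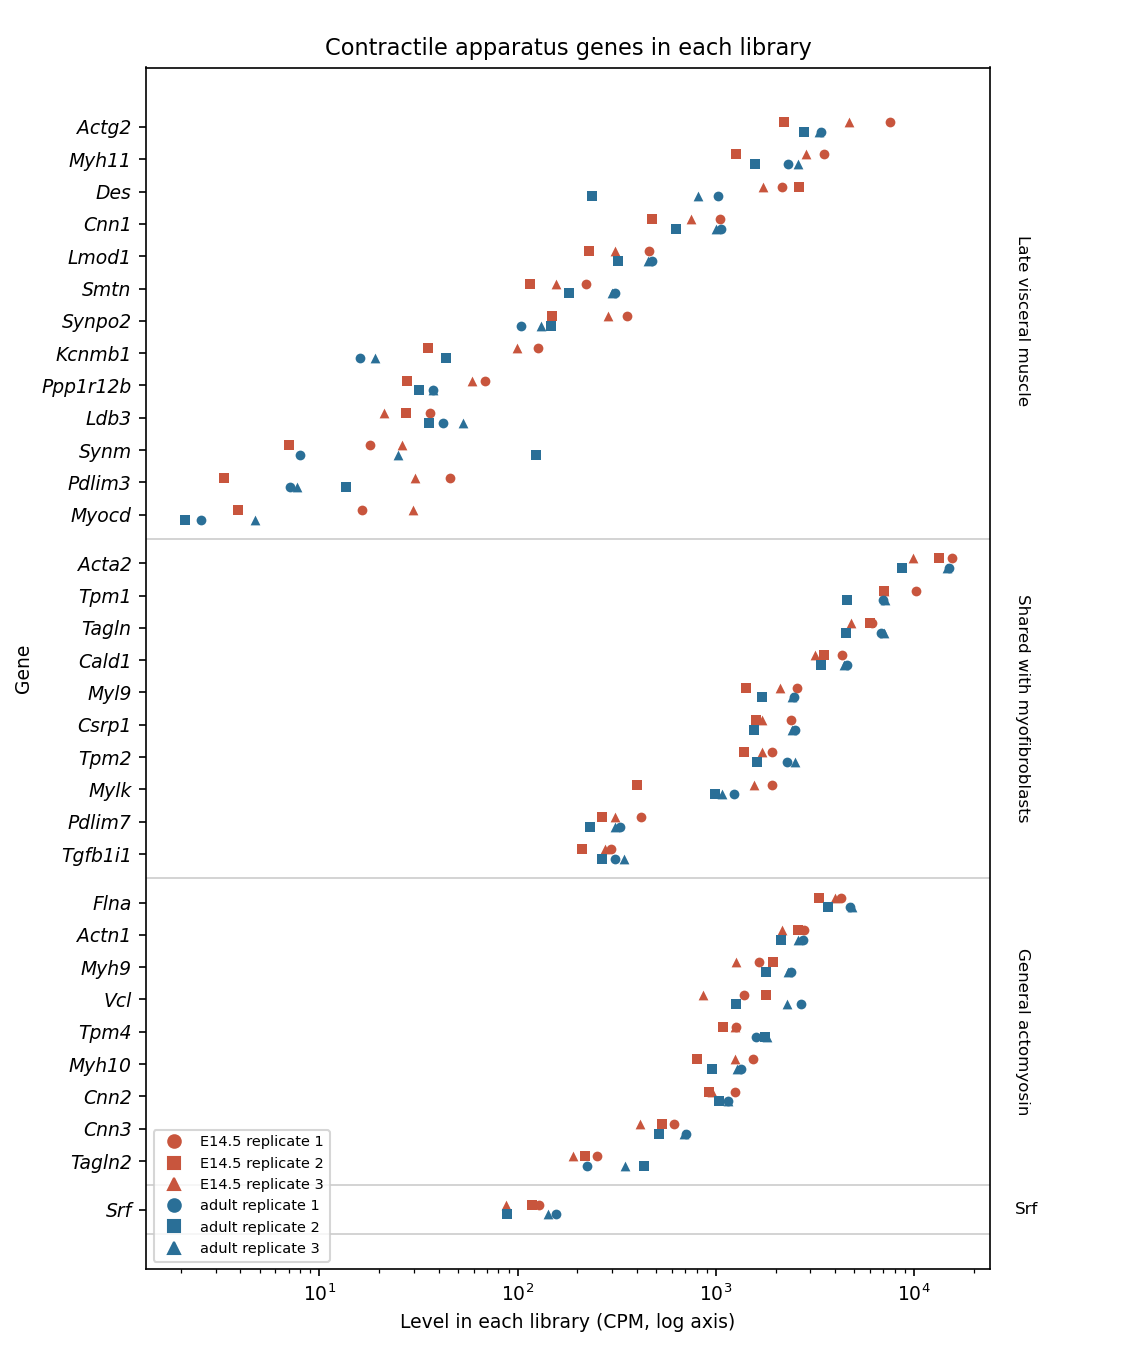
Level of 33 contractile apparatus genes in each of the 6 libraries, in CPM on a log axis, with genes grouped by class and E14.5 points drawn just above adult points. Acta2 lies between 8666 and 15462 CPM in every library, and Des is the most abundant gene whose E14.5 points all lie to the right of the adult points.

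Log2 fold changes spread most widely among the late visceral muscle genes. Among the 13 late visceral muscle genes tested, 8 had a positive and 5 a negative log2 fold change (E14.5 over adult), from -1.61 to 2.42, with a median of 0.53. The 10 genes shared with myofibroblasts ran only from -0.35 to 0.38, with a median of -0.12. All 10 lay within 1.5-fold, as did 10310 of the 13478 genes tested. The 9 general actomyosin genes ran from -0.64 to 0.01, with a median of -0.29 and 7 negative values. The median over all tested genes was 0.01, and 6541 of the 13478 values were negative. A missed threshold does not show equal levels, so the width of the intervals matters here. The 95% interval lay within 2-fold in both directions for 9 of the 10 shared genes and 7 of the 9 general genes, but for 0 of the 13 late genes, against 58% of all genes.

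**Figure D2:**
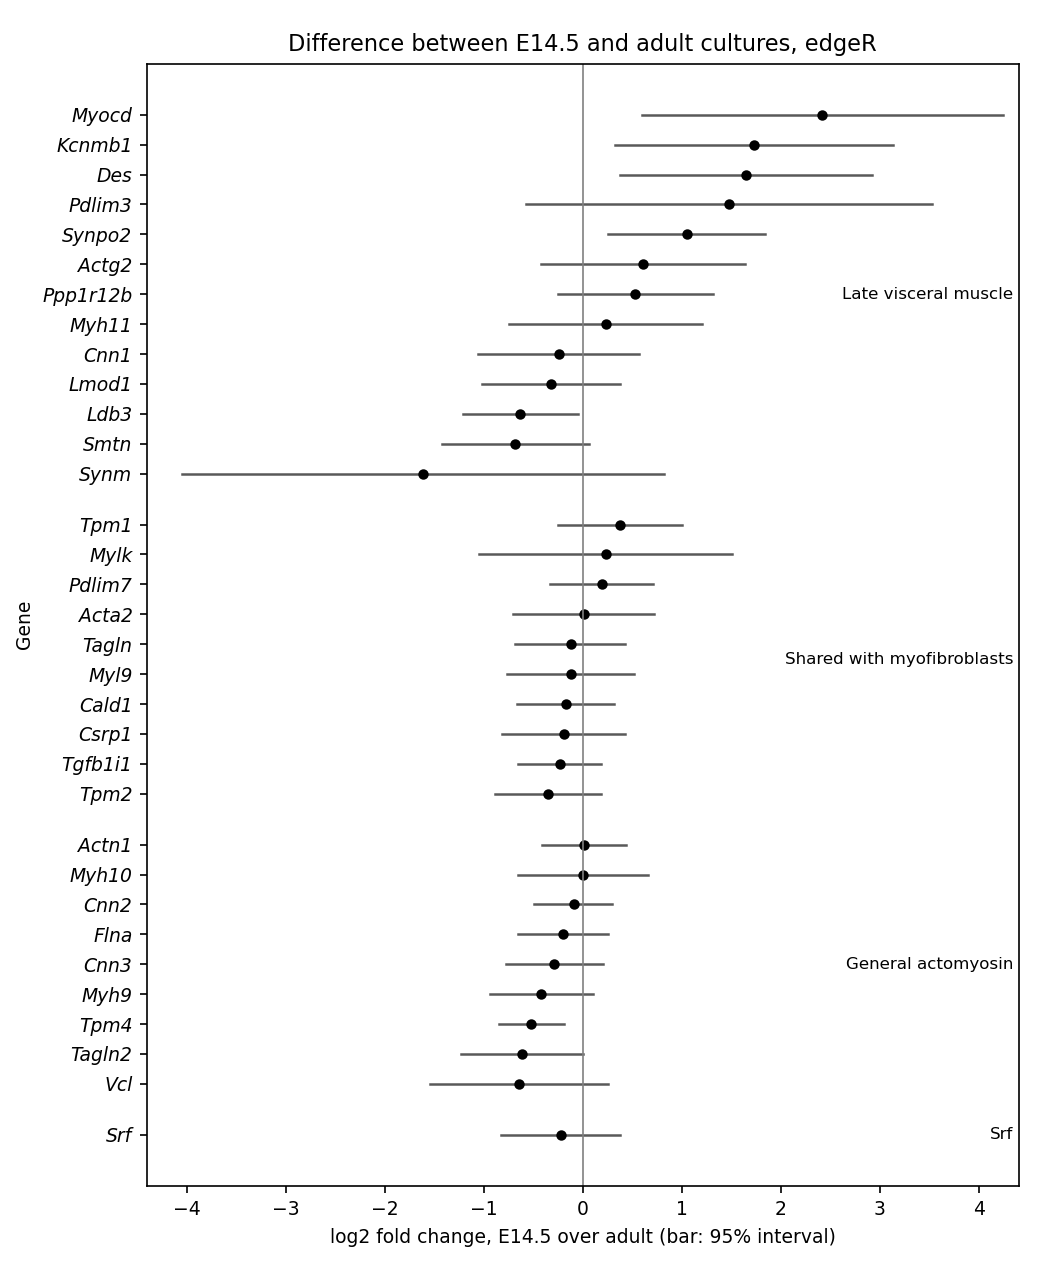
Log2 fold change of E14.5 over adult for each of the 33 tested genes (points) with its 95% interval (bars), by class. The late visceral muscle genes spread from -1.61 for Synm to 2.42 for Myocd, while the other classes stay between -0.64 and 0.38.

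The late gene with the largest positive value was Myocd, which encodes myocardin, the SRF cofactor that is largely restricted to cardiac and smooth muscle (GRCm38.p6, chr11:65173608-65269989, minus strand). Over replicates 1, 2 and 3, Myocd had 16.5, 3.88 and 29.8 CPM in E14.5 cultures, against 2.54, 2.09 and 4.75 CPM in adult replicates 1, 2 and 3. The groups overlapped because E14.5 replicate 2 lay below adult replicate 3. Its log2 fold change was 2.42 (SE 0.75), a 5.34-fold higher mean with a 95% interval of 1.51 to 18.9, and it did not pass (adjusted p = 0.172, edgeR). These levels rest on 528, 125 and 966 counts in E14.5 and 67, 42 and 135 counts in adult libraries. Without E14.5 replicate 2, Myocd passed with a log2 fold change of 2.88 (adjusted p = 0.0413, edgeR). Without E14.5 replicate 3 it was 1.7 (adjusted p = 0.286, edgeR), and these were the highest and lowest values over the 6 libraries left out in turn.

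Des, which encodes desmin, the intermediate filament protein of muscle (GRCm38.p6, chr1:75360292-75368579, plus strand), separated the groups. It had 2158, 2625 and 1722 CPM in E14.5 libraries, against 1023, 236 and 811 CPM in adult libraries. Every E14.5 library lay above every adult library, and adult replicate 2 was the lowest of the 6. The mean was 3.14-fold higher in E14.5, a log2 fold change of 1.65 that did not pass (SE 0.53, adjusted p = 0.177, edgeR). Unlike most late muscle genes, Des was highest in E14.5 replicate 2. Per kilobase of merged exon, Des ranked 8th of the 34 genes in E14.5 and 18th in adult cultures, with 716 CPM per kb in E14.5 and 228 CPM per kb in adult cultures.

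Kcnmb1 encodes the accessory beta subunit that tunes the large-conductance calcium-activated potassium channel to calcium. It measured 126, 35.3 and 98.9 CPM in E14.5 libraries and 16.1, 43.5 and 19.1 CPM in adult libraries. E14.5 replicate 2 lay within the adult range. Its log2 value was 1.73 (SE 0.58, adjusted p = 0.194, edgeR), with a range of 1.35 to 2.3 when single libraries were left out, none of which made it pass. Kcnma1, the gene for the pore-forming subunit of this channel, stayed between 0.281 and 1.64 CPM in E14.5 and between 1.09 and 1.65 CPM in adult libraries. Without both E14.5 replicate 2 and adult replicate 2, Kcnmb1 had a log2 fold change of 2.68 and passed (adjusted p = 0.0193, edgeR). In that fit, chosen after the data were seen, 3 members passed (Kcnmb1, Synpo2 and Pdlim3), all higher in E14.5, against 4.18% of all genes in either direction and 1.46% higher.

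Synpo2, for an actin-bundling protein of the Z-disc and dense body, had 356, 149 and 287 CPM in the E14.5 cultures, against 104, 147 and 131 CPM in the adult ones. The groups did not overlap, but E14.5 replicate 2 stood only just above adult replicate 2. Its log2 value was 1.05 (SE 0.33, adjusted p = 0.174, edgeR), and 1.33 without E14.5 replicate 2 (adjusted p = 0.031, edgeR), but 0.76 without E14.5 replicate 1 (adjusted p = 0.366, edgeR). Pdlim3, which encodes a PDZ and LIM domain protein bound to alpha-actinin, had 45.6, 3.29 and 30.2 CPM in the E14.5 cultures, against 7.08, 13.7 and 7.7 CPM in the adult ones. E14.5 replicate 2 was thus below all adult libraries for Pdlim3, whereas the other E14.5 libraries were above them. Its log2 fold change of 1.48 (SE 0.85, adjusted p = 0.443, edgeR) ranged from 0.8 to 2.0 when single libraries were left out. Ppp1r12b, for a muscle form of the targeting subunit of myosin phosphatase, had means of 51.5 ± 21.1 CPM in the E14.5 cultures, against 35.6 ± 3.29 CPM in the adult ones (SD, n = 3 each). It too passed without E14.5 replicate 2, at a log2 fold change of 0.83 (adjusted p = 0.0413, edgeR), against 0.53 with all libraries and 0.26 without E14.5 replicate 1. In that fit 3 members of 34 passed, all higher in E14.5, where 3.42% of all genes passed in either direction and 1.39% were higher.

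The main filament genes of visceral muscle did not separate the groups. Actg2, which encodes the gamma smooth muscle actin of the gut wall, was the most abundant late gene, with 7551, 2215 and 4719 CPM in E14.5 libraries. Its adult libraries had 3378, 2786 and 3316 CPM. The E14.5 cultures lay on both sides of the adult ones, and the log2 fold change of 0.61 had a 95% interval of -0.42 to 1.64 (adjusted p = 0.536, edgeR). Myh11, the smooth muscle myosin heavy chain, had 3492, 1263 and 2835 CPM in E14.5 against 2312, 1569 and 2604 CPM in adult libraries. Its log2 fold change was 0.23 (95% interval -0.74 to 1.2, adjusted p = 0.84, edgeR), and it was -0.09 without E14.5 replicate 1. Both late filament genes were thus still abundant in every adult library at passage 2 to 3.

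Of the late genes with negative values, Synm, for the intermediate filament protein synemin, had the largest. It had 18.1, 7.01 and 26.2 CPM in E14.5 libraries and 8.03, 124 and 25 CPM in adult libraries, so adult replicate 2 alone stood high. Its log2 fold change of -1.61 (SE 1.0, adjusted p = 0.484, edgeR) became 0.04 without adult replicate 2, the library with the highest endothelial markers (2008 CPM). Whether those cells carry the Synm counts was not tested. The other 4 were Smtn (smoothelin, -0.68), Ldb3 (a Z-disc scaffold, -0.63), Lmod1 (the actin nucleator leiomodin, -0.32) and Cnn1 (basic calponin, -0.24), with adjusted p between 0.246 and 0.787 (edgeR). Cnn1 averaged 760 ± 288 CPM in the E14.5 cultures, against 899 ± 233 CPM in the adult ones, and Smtn 165 ± 53.1 CPM in E14.5, against 264 ± 71.8 CPM in adults (SD, n = 3 each).

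Pcp4, a small modulator of calmodulin, was close to absent. It had 14, 6 and 14 counts in E14.5 libraries and 0 counts in all 3 adult libraries. Set against a floor of 3 counts over the adult group, which covers counting error only, its summed E14.5 level was at least 8.8-fold higher. At 0.352 CPM in E14.5, this is the lowest of the 34 genes.

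Genes shared with myofibroblasts were abundant in both groups, and none of the 10 separated them, where 24.1% of all genes did. Acta2, which encodes alpha smooth muscle actin (GRCm38.p6, chr19:34240336-34255585, minus strand), had the highest level of the 34 genes in both groups, also per kilobase (6348 CPM per kb in E14.5 and 6296 in adult cultures). It measured 15462, 13420 and 9873 CPM in the E14.5 cultures, against 15047, 8666 and 14723 CPM in the adult ones. The groups overlapped almost completely, and the log2 fold change was 0.01 with a 95% interval of -0.7 to 0.72, which leaves room for a change of up to 1.65-fold (adjusted p = 0.989, edgeR). Tagln, for the actin-binding protein transgelin, had 6111, 6018 and 4787 CPM in the E14.5 cultures, against 6797, 4534 and 7065 CPM in the adult ones (log2 fold change -0.12, SE 0.23).

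Among the tropomyosins that stabilise thin filaments, Tpm1 had 10179, 7061 and 7067 CPM in the E14.5 cultures, against 6995, 4600 and 7140 CPM in the adult ones, with the largest positive value of the class, 0.38 (SE 0.26, adjusted p = 0.531, edgeR). Tpm2 had 1911, 1387 and 1715 CPM in the E14.5 cultures, against 2297, 1610 and 2500 CPM in the adult ones, with the largest negative value, -0.35 (SE 0.22, adjusted p = 0.485, edgeR). Both overlapped between the groups. Tgfb1i1, for a focal adhesion LIM protein, had 297, 210 and 277 CPM in E14.5 against 311, 267 and 343 CPM in adult libraries.

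Mylk, the gene for myosin light chain kinase, had the widest spread of this class. It measured 1911, 401 and 1561 CPM in the E14.5 cultures, against 1234, 995 and 1068 CPM in the adult ones. E14.5 replicate 2 was the lowest of all 6 and the other E14.5 libraries were the highest, so Mylk followed Actg2 and Myh11 in its order within E14.5 rather than Acta2. The remaining 4 were Myl9 (the regulatory light chain), Csrp1 (a LIM protein of actin bundles), Cald1 (caldesmon) and Pdlim7 (a PDZ and LIM protein). Their log2 fold changes were -0.12, -0.19, -0.17 and 0.19 in that order, with SE of 0.2 to 0.27, and their groups overlapped.

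Of the 9 general actomyosin genes, 7 had negative log2 fold changes, as did 6541 of the 13478 genes tested. The groups did not overlap for 1 of the 9, against 24.1% of all genes. Tpm4, a tropomyosin of non-muscle cells, had 1261, 1089 and 1254 CPM in E14.5 libraries against 1597, 1761 and 1813 CPM in adult libraries. All E14.5 libraries lay below all adult libraries. Its log2 fold change of -0.52 (SE 0.14) was the most precise of the 33, yet it did not pass (adjusted p = 0.132, edgeR). The value stayed between -0.57 and -0.45 when single libraries were left out. In the GENCODE M21 transcripts, 9.11% of the 75-base stretches of Tpm4 and 4.09% of those of Cnn3 also occur in a gene elsewhere. The deposited counts hold separate summary rows for multimapping and ambiguous reads, which were left out here, but the counting rule is not given. Stretches shared with an overlapping gene made up 53.3% of Tagln, 24.9% of Vcl and 15.2% of Pcp4. Overlapping and distant genes together shared 16.1% of Cnn3, so the counts of these genes may be less certain. Stretches were matched on either strand, while only reverse-strand counts were used, so these shares can overstate the uncertainty.

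The cytoplasmic myosin heavy chain genes Myh9 and Myh10 showed no separation. Myh9 had 1653, 1948 and 1269 CPM in the E14.5 cultures, against 2406, 1784 and 2323 CPM in the adult ones (log2 fold change -0.42, SE 0.22, adjusted p = 0.384, edgeR). Myh10 averaged 1197 ± 371 CPM in the E14.5 cultures, against 1194 ± 210 CPM in the adult ones (SD, n = 3 each). Vcl, for vinculin, which links actin to adhesions, had 1382, 1780 and 858 CPM in the E14.5 cultures, against 2695, 1270 and 2295 CPM in the adult ones. E14.5 replicate 3 and adult replicate 2 were its lowest libraries, and the value of -0.64 had a wide interval of -1.54 to 0.26.

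Flna, for the actin cross-linker filamin A, had 4260, 3330 and 3989 CPM in the E14.5 cultures, against 4767, 3664 and 4852 CPM in the adult ones. Actn1, for alpha-actinin, which bundles actin, had 2780, 2599 and 2152 CPM in the E14.5 cultures, against 2736, 2126 and 2596 CPM in the adult ones, with a log2 fold change of 0.01 (95% interval -0.41 to 0.44). Tagln2, a transgelin of non-muscle cells, had 250, 218 and 191 CPM in the E14.5 cultures, against 225, 435 and 348 CPM in the adult ones (log2 fold change -0.61, SE 0.25, adjusted p = 0.282, edgeR), with its highest level in adult replicate 2. Cnn2 and Cnn3, the calponins of non-muscle cells, had values of -0.09 and -0.29.

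Srf, the transcription factor itself, did not separate the groups. It had 128, 118 and 87.4 CPM in the E14.5 cultures, against 157, 88.9 and 143 CPM in the adult ones, with a log2 fold change of -0.22 (95% interval -0.83 to 0.38, adjusted p = 0.729, edgeR). RefSeq promoter windows of build GRCm38.p6, from 250 bases before to 50 after a listed start, were found for 29 of the 34 genes. Those without one were Actg2, Myh11, Myocd, Tagln and Tgfb1i1. The start used need not be the outer end of the gene. For Srf, the whole window lies inside the gene (chr17:46546838-46558267). The same holds for the windows of Ldb3, Mylk, Tpm1 and Flna, and for a window each of Csrp1, Ppp1r12b and Cald1. Windows are shown because SRF is the common regulator of the set. The consensus CArG box is read the same on both strands. It occurred in the windows of 5 of the 29 members (Ldb3, Myl9, Vcl, Cnn2 and Srf), and in 1.81% of the 27025 genes with a window. A box-like form, in which 1 of the 6 middle letters is not A or T, occurred in 5 of the 29 (Synm, Pdlim3, Pcp4, Acta2 and Myl9) and in 9.69% of genes. The windows of the most abundant member (Acta2, chr19:34255324-34255623, minus strand), a member with both forms (Myl9, chr2:156775214-156775513, plus strand), a general actomyosin gene (Vcl, chr14:20929148-20929447, plus strand) and Srf itself (chr17:46556113-46556412, minus strand) follow 5′ to 3′, with boxes of either form in capitals.
Acta2: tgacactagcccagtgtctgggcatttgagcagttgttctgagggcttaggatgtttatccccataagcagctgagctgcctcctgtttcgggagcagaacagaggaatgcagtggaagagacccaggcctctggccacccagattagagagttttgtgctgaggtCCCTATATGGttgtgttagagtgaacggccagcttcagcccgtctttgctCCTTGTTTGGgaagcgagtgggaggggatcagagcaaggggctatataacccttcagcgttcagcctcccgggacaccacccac
Myl9: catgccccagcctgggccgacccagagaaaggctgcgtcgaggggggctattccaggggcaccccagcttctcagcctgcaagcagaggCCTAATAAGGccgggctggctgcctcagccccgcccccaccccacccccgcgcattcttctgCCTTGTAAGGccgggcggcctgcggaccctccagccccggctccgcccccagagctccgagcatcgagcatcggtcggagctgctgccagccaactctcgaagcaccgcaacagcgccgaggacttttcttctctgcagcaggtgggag
Vcl: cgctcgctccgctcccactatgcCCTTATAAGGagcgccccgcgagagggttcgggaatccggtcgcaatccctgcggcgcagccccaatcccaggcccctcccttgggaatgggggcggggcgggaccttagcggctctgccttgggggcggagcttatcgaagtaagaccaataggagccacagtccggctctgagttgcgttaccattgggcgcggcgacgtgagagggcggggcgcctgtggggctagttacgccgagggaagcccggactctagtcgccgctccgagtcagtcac
Srf: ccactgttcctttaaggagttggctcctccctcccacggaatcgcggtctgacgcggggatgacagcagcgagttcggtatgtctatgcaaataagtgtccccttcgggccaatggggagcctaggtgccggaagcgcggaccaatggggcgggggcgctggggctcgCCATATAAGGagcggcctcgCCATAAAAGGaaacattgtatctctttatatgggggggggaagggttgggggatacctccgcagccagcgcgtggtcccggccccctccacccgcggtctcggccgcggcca
The boxes of Acta2 begin 84 and 34 bases before the start used for its window, and both have 1 letter other than A or T in the middle. Those of Srf begin 82 and 62 bases before the start used for its window and are both consensus boxes. The 5 members with a consensus box in the window had log2 fold changes of -0.63 (Ldb3), -0.12 (Myl9), -0.64 (Vcl), -0.09 (Cnn2) and -0.22 (Srf). A match in these windows is a description and not a measured binding site.

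Replicate 2 of each group was often the lowest library of its group. E14.5 replicate 2 was the lowest E14.5 library for 11 of 13 late visceral muscle genes, 7 of 10 shared genes and 4 of 9 general genes, where it was lowest for 38.6% of all tested genes. Adult replicate 2 was the lowest adult library for 9 of 13 late, 10 of 10 shared and 7 of 9 general genes, against 38.7% of all genes. E14.5 replicate 1 was the highest E14.5 library for 28 of the 33, against 27.4% of all genes. Relative to each gene's own mean over the 6 libraries, the late genes had a median log2 deviation of 0.71, -0.65 and 0.36 in E14.5 replicates 1, 2 and 3, and -0.12, -0.27 and -0.14 in adult replicates 1, 2 and 3. The spread within the E14.5 group was thus wider than the distance between the groups. For the shared genes the same medians were 0.29, -0.26 and -0.07 in E14.5 and 0.24, -0.31 and 0.23 in adults.

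**Figure D3:**
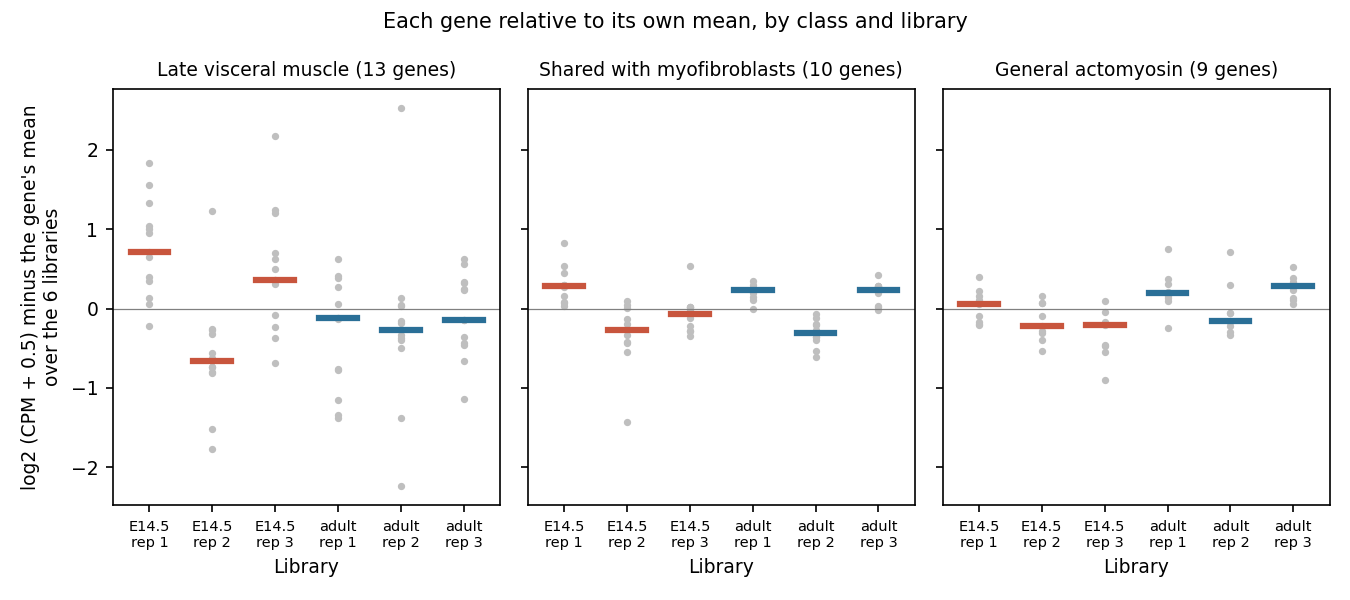
Log2 of CPM plus 0.5 minus the gene's own mean over the 6 libraries, for each gene (grey points) and as the class median (coloured bars; red E14.5, blue adult), by library. In the late class the E14.5 medians run from -0.65 to 0.71, while the adult medians lie between -0.27 and -0.12.

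Markers of other cell types also differed between these libraries, without a shared order. Of 8 mesothelial markers, all tested, none passed, and over replicates 1, 2 and 3 their sum was 189, 859 and 169 CPM in E14.5 cultures, against 1541, 567 and 774 CPM in adult cultures. Replicate 2, often the lowest in muscle genes, was thus the highest E14.5 library but the lowest adult library in mesothelial markers. The sum of fibroblast markers was lowest in replicate 2 of both groups. It was 16610, 7562 and 18356 CPM in E14.5 and 13283, 8019 and 13939 CPM in adult replicates 1, 2 and 3. Col1a1, Col1a2, Dcn and Lum were each lowest in replicate 2 of both groups. Pdgfra was instead highest in adult replicate 2 (81 CPM) and lowest in E14.5 replicate 1 (2.47 CPM). Thy1 was lowest in E14.5 replicate 2 (39.6 CPM) but in adult replicate 1 (173 CPM). Mural cells of vessels, which also carry contractile genes, were read from 8 markers that summed to 526, 169 and 334 CPM in the E14.5 cultures, against 438, 361 and 473 CPM in the adult ones, with Higd1b at 0 counts throughout. None of the 7 mural markers tested passed, and they did not share a direction. Rgs5, Kcnj8 and Abcc9 were higher in every E14.5 library than in any adult one (log2 fold changes 4.87, 3.51 and 3.81), while Cspg4 and Pdgfrb were lower in every E14.5 library (-2.43 and -0.78). Notch3 (-0.29) and Ndufa4l2 (-0.79) overlapped. Rgs5 had 240, 15.7 and 72.9 CPM in the E14.5 cultures, against 1.93, 7.75 and 1.76 CPM in the adult ones, and Pdgfrb 228, 139 and 227 CPM in the E14.5 cultures, against 362, 273 and 383 CPM in the adult ones (adjusted p = 0.12 and 0.168, edgeR). Striated muscle was read from 14 markers, of which 11 stayed under 1 CPM in every library. Acta1, the skeletal actin gene, was the most abundant of them, with 93.3 to 190 CPM in the E14.5 cultures, against 99.2 to 250 CPM in the adult ones. Markers of the gut wall's pacemaker cells, the interstitial cells of Cajal, lay between 7.73 and 33.8 CPM in E14.5, against 5.79 and 22.4 CPM as the adult limits, and those of enteric glia and neurons between 13.8 and 57.2 CPM in E14.5, against 76.8 and 146 CPM as the adult limits. The part of these cell types in the results above was not tested.

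Related forms of the same protein, such as muscle and non-muscle myosin, allow the make-up of the apparatus to be compared within a library. Acta2 and Actg2 both encode smooth muscle actins, so their share does not set muscle against non-muscle actin. As a share of CPM per kilobase of merged exon, Actg2 made up 42.1%, 19.7% and 41.6% of Acta2 plus Actg2 in E14.5 replicates 1, 2 and 3, against 25.1%, 32.4% and 25.1% in adult replicates 1, 2 and 3. Myh11 made up 56.9%, 35% and 57.7% of Myh9, Myh10 and Myh11 together in E14.5 and 42.2%, 40.4% and 46.1% in adult libraries. In both families E14.5 replicates 1 and 3 lay above, and E14.5 replicate 2 below, every adult library. Cnn1 averaged 30.1% ± 6.31 of the calponins in E14.5 and 31.4% ± 3.73 in adult cultures, and Tagln 96.4% ± 0.224 of the transgelins in E14.5 and 94.6% ± 2.79 in adult cultures (SD, n = 3 each). Tpm4 was the only share whose groups did not overlap, at 16.8%, 19.9% and 21.1% of Tpm1, Tpm2 and Tpm4 in E14.5 against 23.6%, 33.6% and 25.1% in adult libraries. With 3 against 3 libraries a two-sided exact permutation test cannot go below p = 0.1, which was the value for Tpm4, and over the 5 shares the adjusted p was 0.5 for Tpm4. Reads could tell the actins apart, since no 75-base stretch of Acta2 or Actg2 occurs in another gene of the GENCODE M21 transcripts. Of Myh9 and Myh10, 0.365% and 0.451% of such stretches do.

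**Figure D4:**
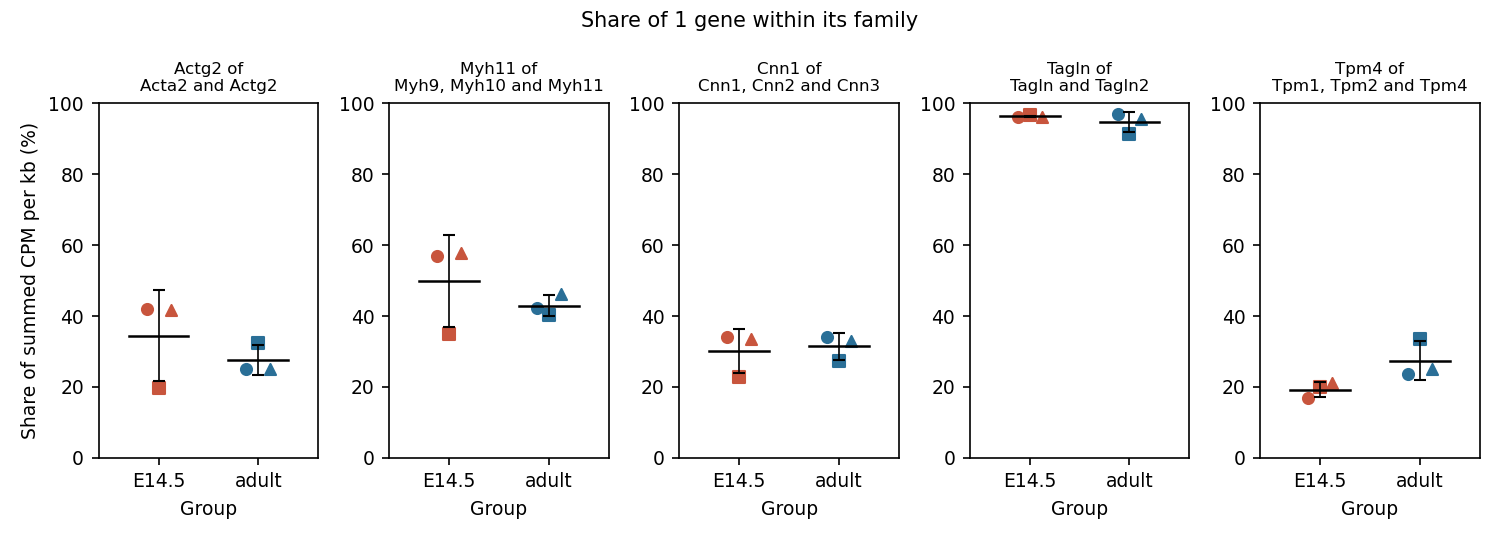
Share of 1 gene in the summed CPM per kilobase of its family, in percent, for each library (points; circle, square and triangle are replicates 1, 2 and 3), with the mean (horizontal line) and SD (bar) over 3 libraries of each group. For Actg2 and Myh11 the square of E14.5 replicate 2 lies below the adult points and the other E14.5 points lie above them.

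Genes that act beside the contractile apparatus were read from 3 further lists. None of their members passed edgeR's test (background 1.08% of all genes): 0 of 30 other smooth muscle genes, 0 of 30 other actin cytoskeleton genes, and 0 of 18 SRF cofactors and partners. Unadjusted p-values under 0.05 numbered 10, 4 and 6 in that order, where 17.9% of all genes had one. The median log2 fold changes were 0.00, -0.16 and -0.19 in the same order.

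The other smooth muscle genes spread widest, from -4.57 to 6.54. Chrm2, for a muscarinic acetylcholine receptor of gut muscle, had 80.4, 14.5 and 37.6 CPM in E14.5 libraries against 0, 1.49 and 0.0703 CPM in adult libraries. Its groups did not overlap, and the fitted log2 fold change of 6.54 (SE 1.37, adjusted p = 0.0959, edgeR) is imprecise, as adult libraries held 0, 30 and 2 counts. It ranged from 5.73 without E14.5 replicate 1 to 10.09 without adult replicate 2, and passed in neither. At the other end, Aoc3, for a surface amine oxidase, had 6.35, 2.42 and 20.8 CPM in E14.5 against 303, 119 and 280 CPM in adult libraries (log2 fold change -4.57, SE 0.88, adjusted p = 0.0807, edgeR). Left-out libraries moved it between -5.74 without E14.5 replicate 3, where it passed (adjusted p = 0.0496, edgeR), and -4.11 without E14.5 replicate 2. The most abundant of the list was Fhl1, a LIM protein gene, with 1426, 1136 and 1264 CPM in the E14.5 cultures, against 1510, 1199 and 1554 CPM in the adult ones. Dmpk, a kinase gene, had 479, 215 and 473 CPM in the E14.5 cultures, against 883, 530 and 958 CPM in the adult ones, with no overlap (log2 fold change -1.02, SE 0.37, adjusted p = 0.231, edgeR).

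Of the SRF cofactors, Mkl1 and Mkl2, which carry the actin signal to SRF in most cells, had values of 0.02 and -0.42, beside 2.42 for Myocd. Gata6, for a transcription factor of gut mesoderm and muscle, had 15.4, 33.2 and 6.24 CPM in E14.5 against 73.2, 61.9 and 55.2 CPM in adult libraries. The groups did not overlap for Gata6 (log2 fold change -1.8, SE 0.56, adjusted p = 0.175, edgeR). Its value was -2.55 without E14.5 replicate 2, where it passed (adjusted p = 0.0468, edgeR), and -1.38 without E14.5 replicate 3. The related Gata4 had 29, 10 and 0 counts in E14.5 and 50, 67 and 77 counts in adult libraries, for a log2 fold change of -2.69 that ranged from -4.05 without E14.5 replicate 1 to -2.11 without E14.5 replicate 3 and never passed. Tead1, for a DNA-binding partner of YAP, was the most abundant of that list, with 627, 620 and 441 CPM in the E14.5 cultures, against 686, 553 and 692 CPM in the adult ones. Rbpms, for an RNA-binding protein of smooth muscle, had 185, 86 and 192 CPM in the E14.5 cultures, against 155, 124 and 138 CPM in the adult ones. Tead1 and Rbpms both overlapped between the groups.

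Among the other actin cytoskeleton genes, Actb (beta-actin) had 4142, 4169 and 3751 CPM in the E14.5 cultures, against 5382, 3647 and 4670 CPM in the adult ones. Tmsb4x, for a protein that holds actin monomers, had 3800, 2878 and 3599 CPM in the E14.5 cultures, against 3818, 2523 and 3468 CPM in the adult ones. Tns1, for the adhesion protein tensin, had the largest value there, -0.97, ranging from -1.55 to -0.65 over left-out libraries. It had 675, 1353 and 409 CPM in the E14.5 cultures, against 2012, 804 and 1949 CPM in the adult ones. All 3 overlapped between the groups.

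**Figure D5:**
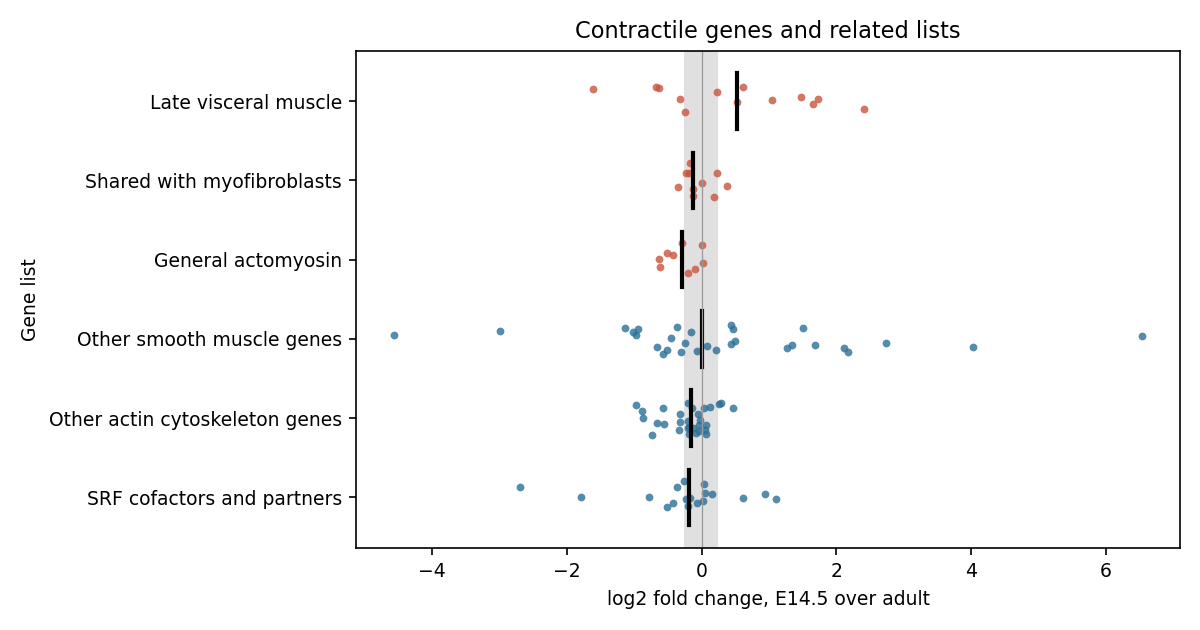
Log2 fold change of E14.5 over adult for each tested gene (points, spread vertically for sight) of the 3 classes of contractile genes (red) and the 3 related lists (blue), with list medians (black bars). The grey band is the middle range of all tested genes, from -0.25 to 0.22, and the other smooth muscle genes spread farthest beyond it, from -4.57 to 6.54.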

How the data were processed

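RNA-seq libraries from poly(A) RNA, stranded and read from a single end over 75 bp, were made from 3 E14.5 and 3 adult cultures, per the labels' protocols. The authors deposited raw whole-number counts per gene, which were aligned with STAR to mm10, per the submitters' processing notes. The STAR version, annotation and counting rule were not given in the sources used. The reverse-strand column was used, since forward-strand counts were 1.33% to 1.69% of stranded gene counts. The 4 summary rows that name no gene (unmapped, multimapping, no-feature and ambiguous reads, 17.45% to 19.81% of reads) were left out.

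Genes were filtered with filterByExpr (13478 kept), scaled by TMM and tested with edgeR 4.0.16 (quasi-likelihood, robust) in R 4.3.3, with p-values adjusted by Benjamini-Hochberg and called under 0.05. SE is the log2 fold change over the square root of F. DESeq2 1.42.0, limma 3.58.1 (voom), other scalings and filters, the unstranded column, the title prefix as a block and single libraries left out were alternatives. Steps were tested on simulated data. CPM, per-kilobase levels (GENCODE M21 merged exons, approximate where isoforms differ) and shares were computed here. The floor of 3 counts covers counting error only.

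Members, classes and lists were chosen with earlier results of these data known. All 34 genes are accounted for. By rule, values per library were given for the 4 genes of largest absolute log2 fold change and the 3 most abundant of each class, and for the 2 and 2 such genes of each other list (counts for Gata4). Synpo2, Pdlim3, Ppp1r12b, Kcnma1, Mkl1 and Mkl2 lie outside that rule and were chosen after their values were seen. Replicates were numbered in accession order. A gene and a gene list that those choices included are not reported here.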

Additional observations from a re-analysis of the deposited data

How the results depend on the processing

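Of the 33 members tested, 24 kept the direction of their log2 fold change under all 17 other settings. The count of members past the test was 0 except with DESeq2 (5), without E14.5 replicate 2 (3) and without both E14.5 replicate 2 and adult replicate 2 (3), the last added after the data were seen. It ranged from 0 to 3 when single libraries were left out. Genes past the test numbered 146, but 1427 with DESeq2, 2 with the title prefix as a replicate block, 2 at an adjusted p of 0.01, 3 to 471 without single libraries (3 without E14.5 replicate 1 or adult replicate 3), 569 without both replicates 2, and 36 with adult replicate 2 and E14.5 replicate 3 left out, also added later. Over all tested genes, libraries that share a title prefix did not deviate together (correlations -0.141, -0.229 and -0.0875). No E14.5 library correlated best with the adult library of its own prefix. Such correlations were not computed for the members alone, for which replicate 2 of each group was often the lowest library. With the prefix as a block, the SE fell for some members, such as Smtn (0.3 to 0.14) and Cnn1 (0.34 to 0.16). It rose for others, such as Des (0.53 to 0.61) and Kcnmb1 (0.58 to 0.78), and no member passed. Class medians ranged from 0.12 to 0.89 (late), -0.29 to -0.03 (shared), -0.43 to -0.21 (general) and -0.28 to -0.01 (all members) when single libraries were left out.

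Values that turned in direction were mostly near 0, and the cause was not tested. Without single libraries, log2 fold changes ranged from -0.09 to 0.55 for Myh11, -0.56 to 0.004 for Cnn1, -2.13 to 0.04 for Synm, -0.21 to 0.17 for Acta2, -0.34 to 0.08 for Myl9, -0.18 to 0.66 for Mylk, -0.02 to 0.33 for Pdlim7, -0.09 to 0.12 for Actn1, -0.23 to 0.22 for Myh10, -0.04 to 0.44 for Rbpms, and -0.09 to 0.19 for Tmsb4x. Without both replicates 2 the values were 0.42 for Synm, -0.23 for Acta2 and -0.11 for Actn1. Without adult replicate 2 and E14.5 replicate 3 they were -0.06 for Myh11, -0.05 for Acta2, -0.0011 for Mylk, -0.17 for Myh10, -0.12 for Rbpms and -0.13 for Tmsb4x. Limma-voom gave -0.04 for Mylk and -0.02 for Myh10, and the block gave -0.02 and -0.03 in that order. With 3 cultures a group, the SE of the late genes (median 0.4) limits what can be detected.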

Other observations

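Some genes of the other smooth muscle list, chosen after their values were seen, had larger differences than any contractile gene tested, without passing edgeR's test. Pgm5, for a protein of adherens junctions and dense plaques in muscle, had 266, 38.6 and 227 CPM in E14.5 libraries against 6.51, 12 and 14 CPM in adult libraries. The groups did not overlap, with a log2 fold change of 4.03 (SE 0.77, adjusted p = 0.0793, edgeR). Mustn1, a small gene of the musculoskeletal system, had 11.1, 9 and 24.4 CPM in E14.5 against 130, 60.2 and 165 CPM in adult libraries, with a log2 fold change of -3 (SE 0.53, adjusted p = 0.0688, edgeR).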
